A study of Mus musculus and Rattus norvegicus with 43 samples.

Results

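The striatum of mice injected with the miRNA labelled C/N-TAF was compared with that of mice injected with a control miRNA, across all genes. Members were taken by the injection label, which gave 5 C/N-TAF libraries and 8 control libraries, 13 of the 43 samples of a series that covers mice and rats. All were C57BL/6 mice injected on postnatal day 0 and taken at 4 months of age, and each library came from the striatum of 1 hemisphere of 1 animal. RNA was extracted with Trizol and sequenced on an Illumina NovaSeq. The design text calls the groups nTaf1 or cnTaf1 against a scramble control, so the C/N-TAF miRNA is directed at the common and the neuronal forms of Taf1 and the control miRNA is the scramble. A group of 8 mice given the miRNA labelled N-TAF, directed at the neuronal form, entered the fit. There it adds to the gene filter, the scaling and the estimate of the spread. Otherwise it is used to show what the C/N-TAF group shares with it or not, which includes a direct test. A general description field carries the same ending for all 22 mice, so the groups rest on the injection label alone. Neither the vector and promoter that drive the miRNAs, the share of cells reached, nor the sex of the animals is given in the sources used here. For 1 mouse the label gives no injection, and it entered no comparison. The labels give every library its own animal number, and the p-values measure the spread between these animals.

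Taf1 encodes the largest subunit of TFIID, the general transcription factor that binds core promoters and helps to place RNA polymerase II there. Neurons splice a microexon into the transcript, which gives the form called N-TAF, while C-TAF is the form without it. In humans, X-linked dystonia-parkinsonism is linked to TAF1 and affects the striatum, a nucleus made up mostly of spiny projection neurons with fewer interneurons, glia and vessel cells. A lower dose of a general factor could in principle touch any gene that RNA polymerase II transcribes, so every gene was tested.

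The microexon sets the forms of the transcript apart and is shown because gene counts cannot. In GENCODE M21 (GRCm38) it is the 6-base exon 35 at chrX:101590734-101590739 on the plus strand, and 1 of 3 protein-coding Taf1 transcripts holds it. The stretches below run 5′ to 3′ with 24 bases on either side, and capitals mark the microexon.
Taf1-206: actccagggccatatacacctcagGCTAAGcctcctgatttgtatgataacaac
Taf1-201: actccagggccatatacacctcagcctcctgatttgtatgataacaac
The deposited counts add both forms, so the files cannot show a change in the neuronal form by itself.

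Taf1 (ENSMUSG00000031314), the targeted gene, was not lower in the C/N-TAF group beyond the spread between animals. Its level in CPM (counts scaled to a common library total, by edgeR's trimmed mean of M values) was 101, 50.6, 95.7, 101 and 105 in C/N-TAF libraries 1 to 5, while the controls ran from 87.1 through a median of 101 to 103. Library 2 lay far below every control and the other 4 lay within or just above the control range. On the log2 scale the difference from the controls came to -0.12 (SE 0.113), with a 95% interval of -0.353 to 0.113 and an adjusted p of 0.703 in edgeR's quasi-likelihood test (Benjamini-Hochberg over all genes). Without library 2 it was 0.035 (SE 0.053, interval -0.0741 to 0.144, adjusted p = 0.938 by edgeR). Counts of library 2 departed from the controls with transcript length, as described below. With an offset for that length and all libraries, the Taf1 difference was -0.031. The N-TAF group had a mean of 97.5 CPM. A lower total Taf1 level was therefore not detectable at 4 months in these libraries, and the groups below are called by their labels.

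**Figure D1:**
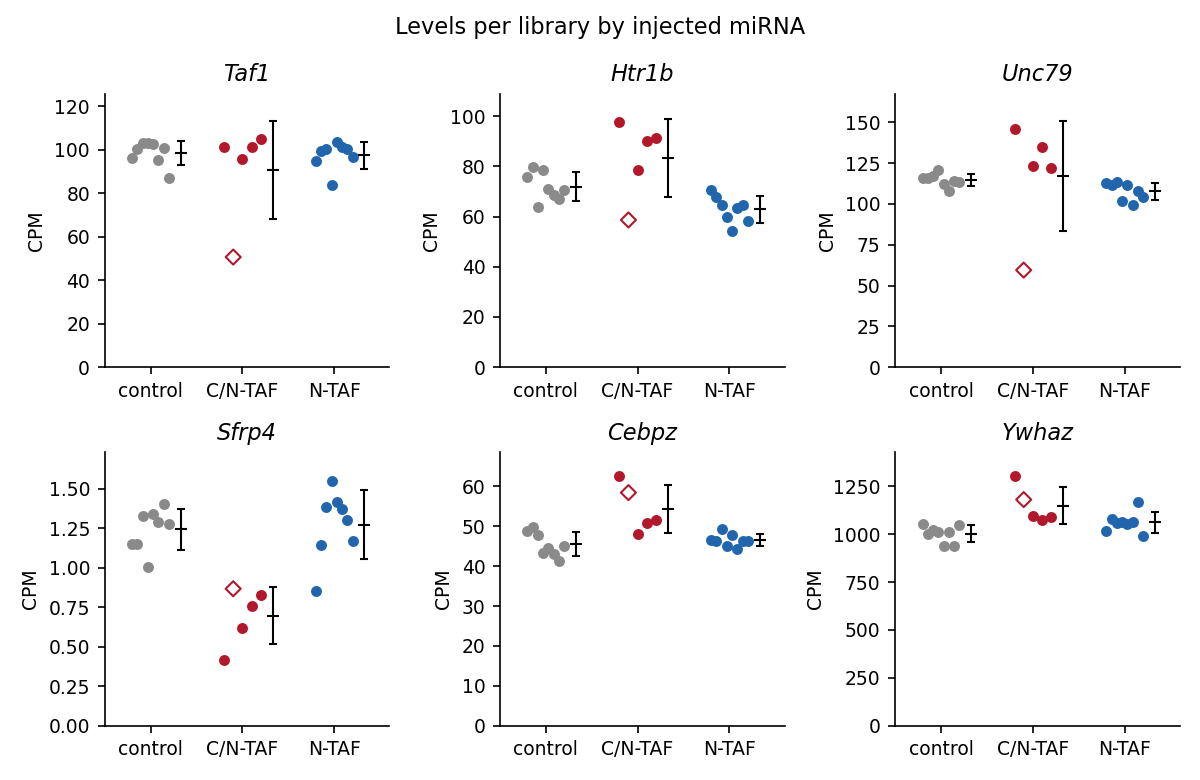
Level in CPM (vertical axes, from 0) of 6 genes in each library of the control, C/N-TAF and N-TAF groups, with the mean and SD beside each group; the open diamond is C/N-TAF library 2, which is included in the mean and SD. Library 2 is the lowest C/N-TAF point for Taf1 at 50.6 CPM and for Unc79 at 59.4 CPM, and all 5 C/N-TAF points for Sfrp4 lie below every control.

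The libraries had similar depth, at 32.3 ± 3.46 M (mega) counts in the C/N-TAF group (SD, n = 5) and 29.5 ± 3.27 M in the controls (SD, n = 8). Genes at 1 CPM or more numbered 15340 ± 113 and 15444 ± 78, and mitochondrial transcripts took 4.62 ± 0.247% and 4.66 ± 0.449% of the counts. Exact two-sided permutation tests of these measures, of Taf1 and of the length dependence described next gave p from 0.0917 to 0.89 (Benjamini-Hochberg adjusted over the 5 measures, 0.431 to 0.89). Markers of spiny projection neurons were abundant, with control means of 312 CPM for Drd1, 278 for Drd2, 1641 for Penk and 1546 for Arpp21. Xist, the transcript of the inactive X chromosome, stood at 1183 and 1253 CPM in control libraries 6 and 7 and at 0.381 to 0.556 in the 5 C/N-TAF libraries, where the Y-linked Ddx3y was at 47.1 to 82.8 CPM. The control group thus held 2 libraries with the X and Y pattern of females and the C/N-TAF group none.

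C/N-TAF library 2 stood apart from every other library before any gene was considered. Its median distance to the controls, the SD across genes of the difference in log2 CPM, was 0.755, against 0.166 to 0.284 for the other 4 and 0.167 to 0.278 for the controls. The departure followed the mean annotated length of a gene's transcripts. In library 2 the median log2 CPM relative to the control mean was 0.879 over 1222 genes under 1 kb, 0.255 over 4271 genes of 1 to 2 kb, -0.298 over 3863 genes of 2 to 4 kb and -0.765 over 904 genes of 4 kb or more. Library 1 leaned the other way, at -0.262, -0.0539, 0.0814 and 0.163 in the same classes. Library 3 ran from 0.0867 to -0.086, and the controls stayed between -0.0445 and 0.126. What set the length dependence was not tested. The main results below are given with and without library 2, and the values of library 1 are named where they carry a result.

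**Figure D2:**
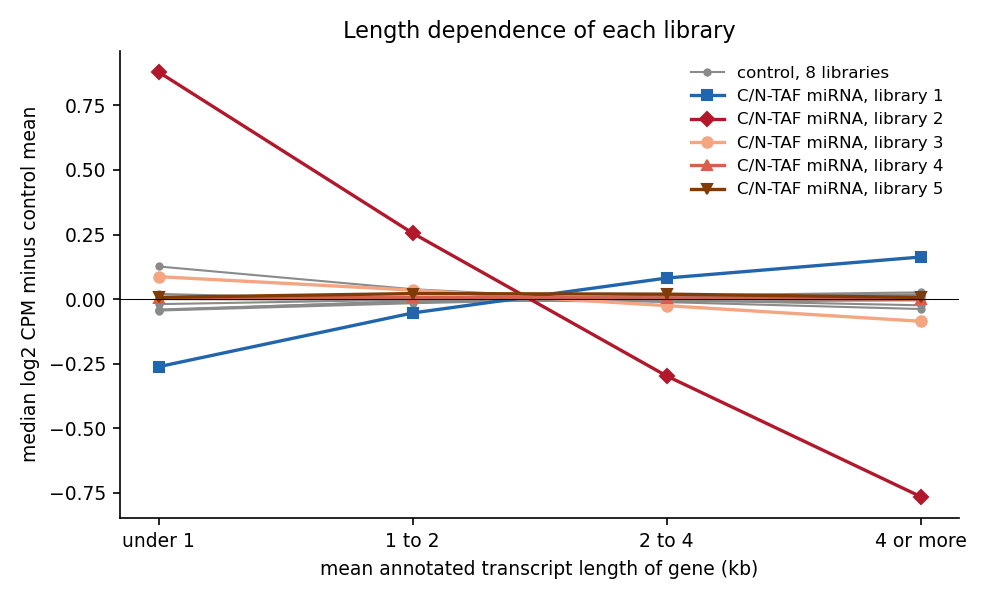
Median over genes of log2 CPM minus the control mean (vertical axis) in 4 classes of mean annotated transcript length (horizontal axis), with a line for each C/N-TAF library and grey lines for the controls. Library 2 runs from 0.879 in the shortest class to -0.765 in the longest, and library 1 from -0.262 to 0.163.

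Across the 19413 genes tested, 0 passed for C/N-TAF against control in edgeR's quasi-likelihood fit at a Benjamini-Hochberg adjusted p under 0.05, a share called of 0%. At an unadjusted p under 0.05 there were 1623 genes (8.36%), 987 higher (5.08%) and 636 lower (3.28%). Without library 2, 19653 genes were tested, 0 passed (0%) and 1146 were under an unadjusted 0.05 (5.83%), of which 551 were higher (2.8%) and 595 lower (3.03%). DESeq2 and limma-voom called 0 genes too, with 1780 and 1751 at an unadjusted p under 0.05 for all libraries and 1217 and 1128 without library 2. Every C/N-TAF library lay below every control for 34 genes (0.175%) and above for 18 (0.0927%), and without library 2 for 57 (0.29%) and 51 (0.26%). The spread within the C/N-TAF group was wider than in the controls. The median SD of log2 CPM over genes at 10 CPM or more was 0.254 with library 2, 0.120 without it and 0.0724 without libraries 1 and 2, against 0.0916 in the controls.

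For genes at 10 CPM or more, 10256 of the 19413 tested, the data were precise enough to bound most effects. Lower transcripts were not summarised in this way. Among the 10256 genes, the standard error of the log2 fold change had a median of 0.092. The 95% interval lay within 1 log2 unit of 0 for 99.5% of them and within a 1.5-fold change for 92.1%. Without library 2 the median was 0.0679 and the shares were 99.6% and 98.4% of 10218 genes. A log2 fold change beyond 1 in either direction was seen for 3 of these genes, and for 4 without library 2. They were chosen after their values were seen. Xist (-9.33) separates the libraries by the sex pattern above. Plin4, a coat protein of lipid droplets, was at 9.95, 3.11, 4.91, 3.09 and 4.92 CPM in C/N-TAF libraries and ran from 2.34 through 6.53 to 61.6 in controls (-1.82), so the groups overlapped. Gm23935, a predicted gene, was at 263, 197, 243, 280 and 456 CPM against 369 to 1497 in controls (-1.11). Without library 2, Slc17a7, the vesicular glutamate transporter of cortical neurons, stood at -1.23 and Nr4a3, an immediate-early nuclear receptor, at 1.01. None of these 5 genes passed the test.

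Of the 10 genes of smallest p that the naming rule takes on the lower side, 8 are known from the vessel wall or its matrix: fibronectin (Fn1), both chains of the main type IV collagen of basement membranes (Col4a1, Col4a2), the receptor and signalling genes Pdgfrb and Notch3 of pericytes and smooth muscle, Cd248 (endosialin, a surface protein of pericytes and fibroblasts), the drug efflux pump Abcb1a of the blood-brain barrier and Adgra2, a receptor needed for brain vessel growth and barrier formation. Sfrp4, a secreted Wnt antagonist, and Tns1, which links integrin adhesions to actin, complete the list. For each of the 10 the adjusted p was 0.59 by edgeR, so none passed. In bulk tissue, fewer cells of a type and less RNA per cell cannot be told apart.

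Fn1 (ENSMUSG00000026193) was at 34.9, 17.7, 25, 24.9 and 21.1 CPM in C/N-TAF libraries 1 to 5, and controls ran from 31.7 through 38.3 to 45.9. Library 1 lay inside the control range and the other 4 below it. The log2 fold change was -0.63 (SE 0.13), and -0.53 (SE 0.124, adjusted p = 0.78 by edgeR) without library 2. With library 1 left out instead it was -0.78 (SE 0.117) and passed at an adjusted p of 0.0206 by edgeR, the only call among the fits that leave out 1 control or C/N-TAF library. In the N-TAF group, which is measured against the same controls, Fn1 stood at -0.42.

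Col4a1 and Col4a2 encode the chains that form a joint trimer under endothelium, and they share a promoter region. Col4a2 was at 33.1, 29.1, 34.6, 36 and 31.1 CPM, all below the controls at 37.8, 40.5 and 44.7 (lowest, median, highest). Its log2 fold change was -0.31 (SE 0.077), and -0.27 without library 2. Col4a1 was at 26.4, 20.3, 27.1, 25.1 and 22.7 CPM, with controls from 27 through 32.9 to 35.5, so library 3 just overlapped the lowest control. The difference was -0.39 (SE 0.0871), and -0.33 without library 2. Set against controls numbered 26 to 28 alone, Col4a1 was at -0.23, and at -0.16 without library 2. Numbers 27 and 28 are control libraries 6 and 7, which carried Xist, so this subset differs in sex pattern too. Beside the same controls the N-TAF group gave -0.24 for Col4a1 and -0.02 for Col4a2.

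The mural cell genes of this set were low in most or all C/N-TAF libraries. Pdgfrb, the platelet-derived growth factor receptor that pericytes need, was at 25.5, 23, 25, 25.7 and 22.9 CPM against 26.3 to 32.7 in controls with a median of 28.6. All 5 lay below every control, by amounts close to the spread within the groups (log2 fold change -0.24, SE 0.0599, and -0.22 without library 2). After an offset for transcript length, Pdgfrb was at -0.076. Notch3, the Notch receptor of smooth muscle, was at 24.3, 20.2, 24.8, 26.8 and 26.4 CPM, again below all controls, which ran from 27.2 through 30.6 to 33.2 (-0.32, SE 0.0847; -0.26 without library 2). Cd248 was at 1.59, 1.61, 1.73, 2.19 and 1.24 CPM, with library 4 inside the control range of 2.11 to 3.67 (median 2.57; -0.73, SE 0.175; -0.71 without library 2). Beside the same controls the N-TAF group was lower too, at -0.16 for Pdgfrb, -0.26 for Notch3 and -0.37 for Cd248.

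Sfrp4, which binds Wnt ligands outside the cell, was a low transcript. It was at 0.416, 0.866, 0.618, 0.759 and 0.825 CPM in C/N-TAF libraries and at 1.01, 1.28 and 1.40 in controls (lowest, median, highest). No C/N-TAF library overlapped the controls, and the log2 fold change was -0.82 (SE 0.181), or -0.91 (SE 0.205) without library 2. Of the 34 Wnt pathway genes tested, 2 were lower at an unadjusted p under 0.05 and 0 higher. Over all genes tested, 3.28% were lower and 5.08% higher. The 2 were Sfrp4, already taken for its small p, and Lrp5, a Wnt co-receptor (-0.36, and -0.25 without library 2). The list median was -0.04 beside 0.00076 over all genes.

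Abcb1a pumps drugs and lipids back into blood. It was at 39.9, 25.4, 32.3, 35.5 and 26.8 CPM, and only library 1 entered the control range of 38.9 to 45.1 (median 41; -0.38, SE 0.0955; -0.30 without library 2; -0.41 in the N-TAF group). Adgra2 was at 13.4, 11.8, 15.8, 15.6 and 12.6 CPM, with controls from 15.8 through 17.3 to 19, and library 3 met the lowest control (-0.32; -0.26 without library 2). Tns1 was at 71, 45.7, 64.2, 68.4 and 61.9 CPM, below all controls at 73.6 to 86.1 (median 77.9; -0.33, SE 0.0812; -0.24 without library 2). The N-TAF group stood at -0.17 for Adgra2 and -0.24 for Tns1 beside the same controls. Of these 10 genes, 5 had every C/N-TAF library below every control, namely Sfrp4, Col4a2, Notch3, Pdgfrb and Tns1. Over all genes tested that share was 0.175%, but the 10 were taken for their small p, so this position is no separate support.

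**Figure D3:**
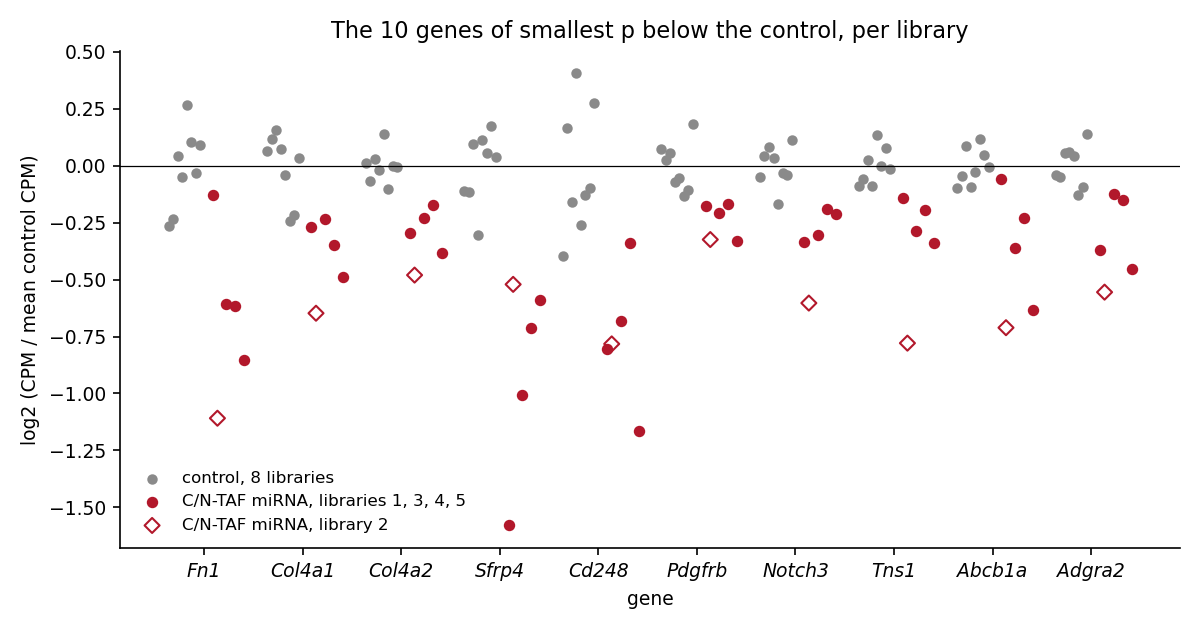
Level of the 10 genes of smallest p below the control, as log2 of CPM over the mean control CPM (vertical axis), per library; grey points are 8 controls, red points C/N-TAF libraries 1, 3, 4 and 5, and open diamonds library 2. All 5 C/N-TAF points of Sfrp4, Col4a2, Notch3, Pdgfrb and Tns1 lie below the lowest control point, and library 2 is at 17.7 CPM for Fn1.

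Whole lists of vessel markers lay on the same side. Of 20 endothelial genes, 17 had a negative log2 fold change and 20 without library 2, with a list median of -0.25 and -0.30. Over all genes tested the medians were 0.00076 and -0.0035. Against controls numbered 26 to 28 alone the endothelial median was -0.16 with library 2 and -0.18 without it. At an unadjusted p under 0.05, 10 endothelial genes were lower (11 without library 2) and 0 higher, where 3.28% of all genes tested were lower (3.03% without library 2), and none passed after adjustment. Abcb1a, already taken above for its small p, is among the 10. Vwf, the clotting factor that endothelium stores, was at 13.1, 14, 14.2, 12 and 9.45 CPM, below all controls at 15.7 to 25.7 (-0.62, SE 0.213; -0.66 without library 2). Kdr, the main VEGF receptor, was at 11.2, 7.91, 9.64, 12.6 and 8.34 CPM with controls from 10.4 to 18.1, so libraries 1 and 4 overlapped (-0.47, SE 0.135; -0.39). Slco1a4, an organic anion transporter of the barrier, was at 58.5, 42.8, 45.5, 44.7 and 37.7 CPM against 52.3 to 63.9, with library 1 inside the controls (-0.35, SE 0.0977; -0.32). Sox17, a transcription factor of arterial endothelium, stood at -0.50 and -0.59. Ly6e, a surface antigen enriched in brain endothelium, was at 38.6, 37.7, 35.7 and 33.3 CPM in libraries 1, 3, 4 and 5 against 37.4, 45.8 and 55.1 in controls (-0.35 without library 2), but at 85.4 in library 2. Without library 2, Ly6e was among the 10 genes of smallest p on the lower side. The count of 11 includes it and so is not separate from that choice.

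Of 14 genes of pericytes and smooth muscle, 11 were negative (13 without library 2), 6 were lower at an unadjusted p under 0.05 (7 without library 2) and 0 higher, with medians of -0.19 and -0.20, where 3.28% and 3.03% of all genes tested were lower. The 3 members with every C/N-TAF library below every control (0.175% of all genes) were Pdgfrb and Notch3, already taken above for their small p, and Abcc9, a potassium channel subunit of pericytes at 13.4, 4.96, 9.76, 13 and 10.8 CPM against 13.4 to 15.7. Abcc9 stood at -0.46 (SE 0.147) and at -0.27 without library 2, and in that fit 2 members of the list lay below every control (0.29% of all genes). Myh11, the smooth muscle myosin, was at 6.2, 5.88, 6.52, 6.04 and 4.54 CPM against 5.86 to 9.85 (-0.48, SE 0.14; -0.48 without library 2). Its groups overlapped in all but library 5.

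Matrix and fibroblast genes numbered 30, of which 23 were negative (21 without library 2), 6 were lower at an unadjusted p under 0.05 (8 without library 2) and 0 higher, beside the same shares of all genes, with a median of -0.15 in both fits. Fn1, Col4a1 and Col4a2, already taken above for their small p, are among the 6, so this count is not separate from that choice. That median was -0.09 against controls numbered 2 to 7 alone, and -0.06 with library 4 left out beside library 2. Hspg2, the perlecan core protein of basement membranes, was at 11.9, 6.93, 9.73, 8.6 and 10.3 CPM against 10.7 to 13.7 (-0.38, SE 0.129; -0.28 without library 2). Only library 1 lay inside the controls.

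The mean over a list of log2 CPM minus the control mean gives 1 value per library. For endothelial genes it was -0.193, -0.026, -0.222, -0.251 and -0.557 in C/N-TAF libraries 1 to 5, with controls from -0.174 to 0.114, so library 2 lay inside the control range. For pericytes and smooth muscle it was -0.201, -0.138, -0.214, -0.150 and -0.341, all below the control range of -0.123 to 0.169. For matrix genes it was 0.0159, -0.333, -0.236, -0.222 and -0.137 against -0.185 to 0.302, so libraries 1 and 5 overlapped. Library 5 was the lowest for both vessel cell classes and library 2 for matrix. The N-TAF group, set beside the same controls, had list medians of -0.36 for endothelial, -0.25 for mural and 0.0075 for matrix genes.

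**Figure D4:**
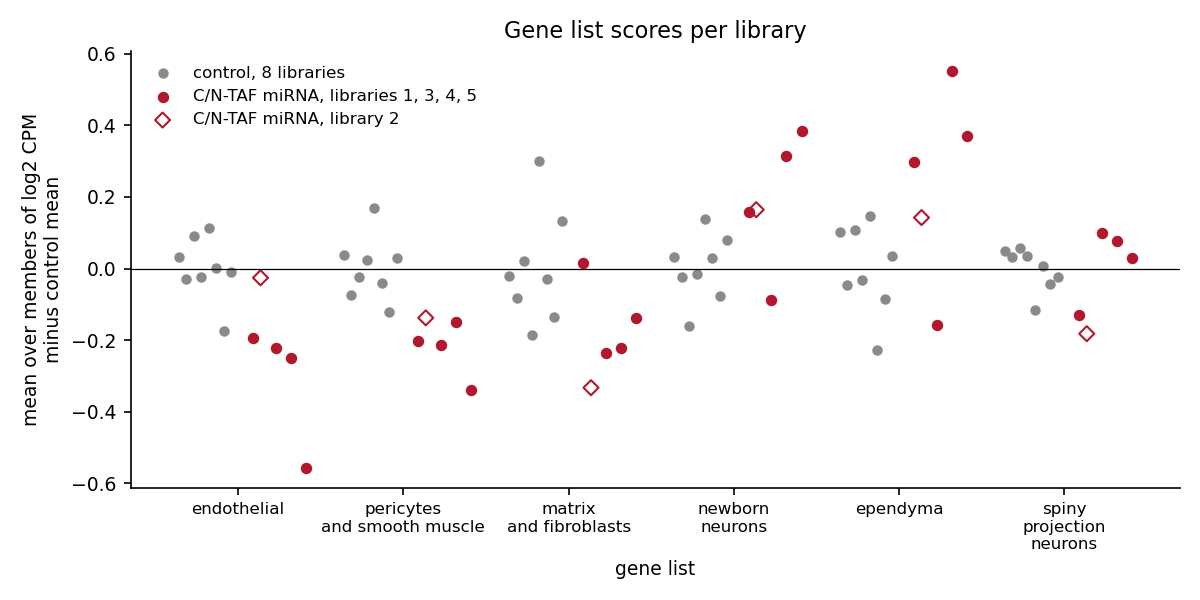
Mean over list members of log2 CPM minus the control mean (vertical axis) per library for 6 gene lists (horizontal axis); grey points are controls, red points C/N-TAF libraries 1, 3, 4 and 5, and open diamonds library 2. All 5 C/N-TAF points for pericytes and smooth muscle lie below the controls, whose lowest is -0.123, while for endothelial genes library 2 lies among the controls at -0.026.

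The 10 genes of smallest p on the higher side are given next, and several had their highest values in libraries 1 and 2. Cebpz, a nucleolar factor in the assembly of the large ribosomal subunit, was at 62.5, 58.4, 48.2, 50.8 and 51.7 CPM, with controls from 41.3 through 44.8 to 49.9. Library 3 overlapped the controls and libraries 1 and 2 stood highest (log2 fold change 0.26, SE 0.0623; 0.23 without library 2; 0.14 without libraries 1 and 2). Eif5b, which joins the ribosomal subunits at the start codon, was at 137, 161, 94.6, 98 and 96.3 CPM against 81.1, 89.3 and 94.7 in controls, which library 3 overlapped (0.40, SE 0.106; 0.27 without library 2; 0.12 without libraries 1 and 2). Tcp1, a subunit of the chaperonin that folds actin and tubulin, was at 183, 214, 147, 154 and 158 CPM, with libraries 1 and 2 far above controls of 138 to 150 (0.24; 0.15; 0.077 without libraries 1 and 2). Eif3e and Eif3j1, subunits of initiation factor 3, stood at 0.31 and 0.20, at 0.16 and 0.20 without library 2, and at 0.11 and 0.13 without libraries 1 and 2. Reads of Eif3j1 could be shared with its near copy Eif3j2, so its value is uncertain.

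Gtf2f2, a subunit of the general factor TFIIF that escorts RNA polymerase II to the promoter, was at 13.3, 18.2, 11, 11.4 and 12 CPM against 8.8, 10 and 12 in controls. Libraries 1 and 2 lay above the controls, library 5 was level with the highest control and the other 2 lay within them (0.37; 0.23 without library 2; 0.17 without libraries 1 and 2). Ywhaz, a 14-3-3 adaptor protein abundant in neurons, was at 1305, 1180, 1097, 1072 and 1090 CPM, above every control at 936, 1009 and 1052 (0.20; 0.19 without library 2; 0.12 without libraries 1 and 2). Zmynd10, needed to assemble the motors of motile cilia, was at 5.18, 6.18, 5.1, 5.79 and 5.9 CPM, just above controls of 3.76 to 5.09 (median 4.51; 0.32; 0.29 without library 2), and the N-TAF group stood at 0.25 beside the same controls. Ttc1 and Srek1ip1, an adaptor of chaperones and a splicing-related protein, were at 0.28 and 0.21, and at 0.16 and 0.15 without library 2. All 10 genes on the higher side had an adjusted p of 0.59 by edgeR and none passed. Ywhaz and Zmynd10 had every C/N-TAF library above every control, as did 0.0927% of all genes tested, but the 10 were taken for their small p, so this position is no separate support.

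Genes of the transcription machinery to which Taf1 belongs had small values. Of 17 genes of TFIID, 1 was at an unadjusted p under 0.05, on the higher side, where 5.08% of all genes tested were higher. That gene was Taf7, a subunit that binds Taf1. It was at 9.57, 10.8, 8.71, 9.24 and 8.5 CPM against 6.38 to 9.33, so libraries 3, 4 and 5 overlapped the controls (0.25, SE 0.0919; 0.20 without library 2). The list median was 0.05, and 0.02 without library 2. Of 22 subunits of the general factors and of RNA polymerase II, 5 were higher at an unadjusted p under 0.05 with library 2 and 2 without it, where 5.08% and 2.8% of all genes tested were higher, with medians of 0.09 and 0.01. Gtf2f1, the partner of Gtf2f2 in TFIIF, was at 49.4, 114, 65, 57.7 and 62.4 CPM against 52.6 to 58.1, and its 0.33 became 0.09 without library 2. Of 23 ribosome biogenesis genes, 5 were higher at that level (3 without library 2) and 0 lower, beside the same shares of all genes, with medians of 0.13 and 0.04. Gtf2f2 of the general factors and Cebpz of ribosome biogenesis were already taken above for their small p. Ncl, nucleolin, was at 414, 418, 340, 332 and 343 CPM against 286 to 345, with libraries 1 and 2 alone above the controls (0.20, SE 0.0738; 0.16 without library 2).

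Several list medians had another size or sign without library 2. Cytosolic ribosomal proteins, short transcripts by nature, had a median of 0.33 over 45 genes. Of these, 20 were higher at an unadjusted p under 0.05, beside 5.08% of all genes. Without library 2 the median was -0.04 and 0 were at that level, beside 2.8% of all genes higher and 3.03% lower. Library 2 scored 1.26 and the other 4 C/N-TAF libraries -0.239 to 0.087. Nuclear-encoded respiratory chain genes went from 0.27 to -0.06 over 36 genes, with library 2 at 1.06 and library 1 at -0.505. Interferon and MHC class I genes went from 0.26 to -0.08, and microglial genes from 0.15 to -0.02. Ion channels, many of them long, went from -0.15 over 33 genes to -0.02, and glutamate receptors from -0.13 to -0.01. For unfolded protein response genes 7 of 17 were higher at an unadjusted p under 0.05 with library 2 and 3 without it (medians 0.19 and 0.04), beside 5.08% and 2.8% of all genes. Among them Pdia4, a protein disulfide isomerase of the endoplasmic reticulum, was at 54.9, 49.7, 39, 44.9 and 48.4 CPM against 35.6 to 43.3 (0.27, SE 0.0903; 0.25 without library 2), with library 3 inside the controls.

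**Figure D5:**
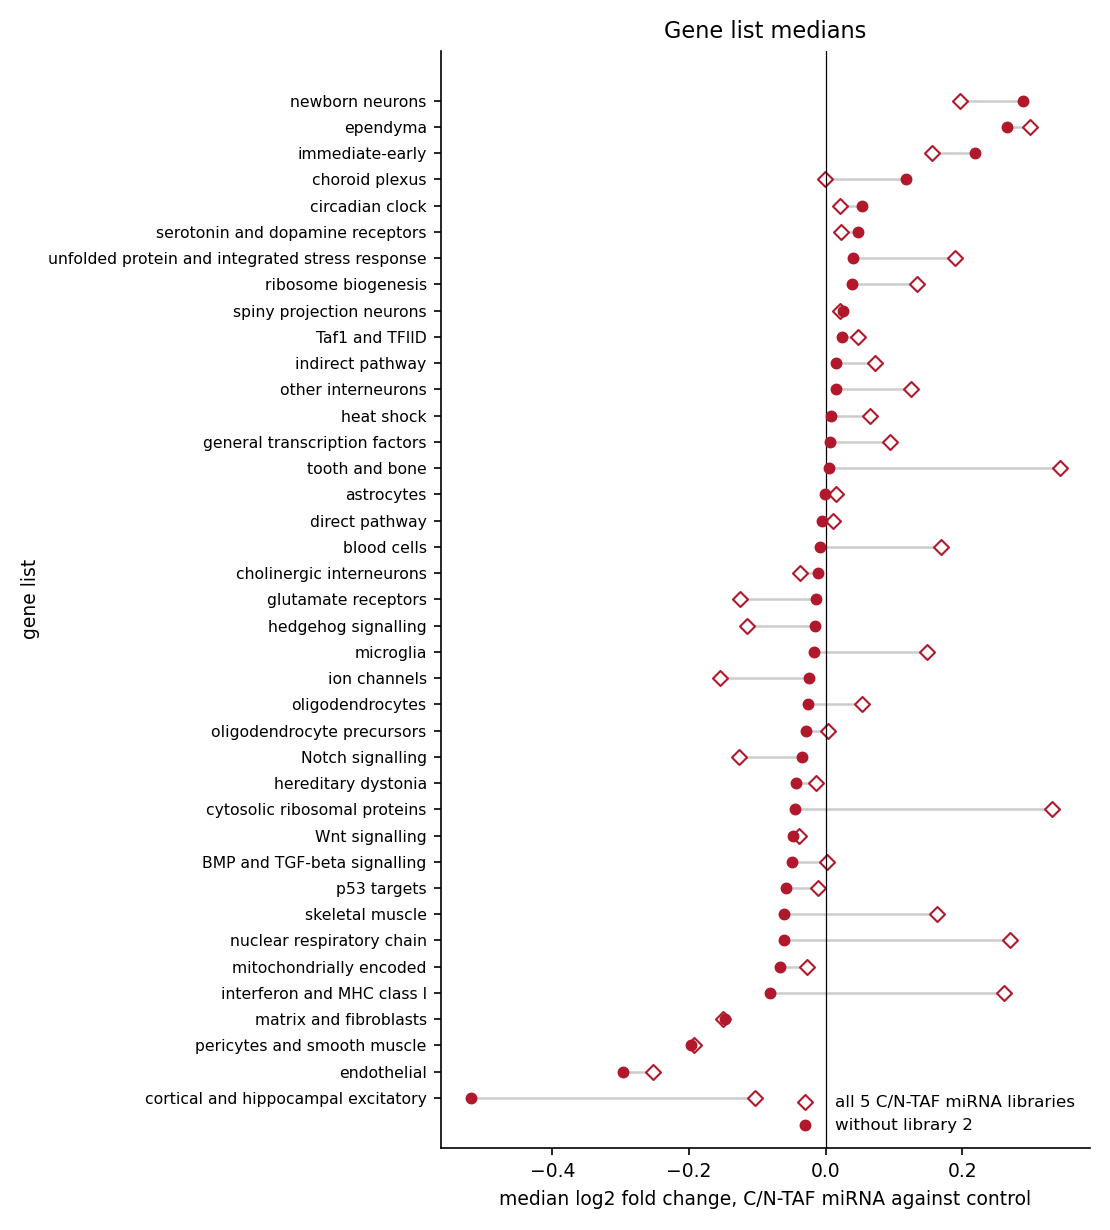
Median log2 fold change of C/N-TAF against control (horizontal axis) for 39 gene lists (vertical axis); diamonds are fits with all 5 C/N-TAF libraries and dots fits without library 2. Endothelial genes are at -0.25 and -0.30 in the 2 fits, while cytosolic ribosomal proteins are at 0.33 and -0.04.

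For genes that identify striatal neurons, list medians were small but library scores spread beyond the controls. The median was 0.02 over 22 genes common to spiny projection neurons (0.03 without library 2), 0.01 over 9 direct-pathway genes (-0.0048 without library 2) and 0.07 over 8 indirect-pathway genes (0.01 without library 2), and 0 members of these lists were at an unadjusted p under 0.05 with all libraries. The score for spiny projection neurons was -0.130, -0.182, 0.0999, 0.078 and 0.0282 in C/N-TAF libraries 1 to 5 against -0.115 to 0.0575 in controls, so libraries 1 and 2 lay below the controls and libraries 3 and 4 above them. The indirect-pathway score was -0.303, 0.251, 0.136, 0.0529 and 0.0736 against -0.119 to 0.0591, with library 1 below the controls and libraries 2, 3 and 5 above. Drd1, the dopamine receptor of direct-pathway neurons, was at 306, 306, 319, 340 and 320 CPM against 292 to 329 in controls (0.03, SE 0.0675; 0.05 without library 2). Drd2, its counterpart in indirect-pathway neurons, was at 262, 348, 298, 288 and 283 CPM against 259 to 286 (0.09, SE 0.0749; 0.03 without library 2). Meis2, a transcription factor of these neurons, was the 1 spiny neuron gene at an unadjusted p under 0.05 without library 2 (0.10, SE 0.0471). In that fit 2.8% of all genes were higher at that level. Cholinergic interneuron genes had a median of -0.04 over 12 members, and -0.01 without library 2, with 0 at an unadjusted p under 0.05. Slc5a7, the choline transporter, was at 50.5, 21.7, 47, 43.6 and 46.9 CPM against 43.4 to 52.8, so for this gene library 2 alone was low. The cholinergic score was -0.0166, -0.169, 0.0802, -0.219 and -0.102 in libraries 1 to 5 against -0.107 to 0.0793 in controls. Libraries 2 and 4 thus lay below the controls and library 3 just above them. The N-TAF group, against the same controls, had a cholinergic median of -0.42.

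Without library 2 the gene of smallest p was Htr1b (ENSMUSG00000049511), an inhibitory serotonin receptor that spiny neurons place on their axon terminals. It was at 98.3, 78.8, 90.6 and 91.6 CPM in C/N-TAF libraries 1, 3, 4 and 5, and at 63.9, 70.7 and 80.3 in controls (lowest, median, highest). Library 3 lay inside the control range and the other 3 above it. This gave a log2 fold change of 0.32 with a standard error of 0.0674 (adjusted p = 0.78 by edgeR). Library 2 was at 58.7 CPM, below every control, and with it the value was 0.21. Per kilobase of merged exon the control level was 15.2 CPM, against 11.5 for Taf1. Of 17 serotonin and dopamine receptor genes, 3 were higher and 0 lower at an unadjusted p under 0.05 without library 2, with a median of 0.05, where 2.8% of all genes were higher and 3.03% lower. Htr1b, itself taken for its small p, is among the 3. With library 2 there were 2 higher and 1 lower (5.08% and 3.28% of all genes), with a median of 0.02.

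Unc79, a subunit of the sodium leak channel complex that sets resting excitability, was at 146, 124, 135 and 122.2 CPM in libraries 1, 3, 4 and 5 and at 107, 115 and 120.9 in controls. All 4 lay above every control (0.20, SE 0.0502), while library 2 was at 59.4 CPM and brought the value to 0.030. Foxp2, a transcription factor of striatal neurons in circuits for learned movement, stood at 0.22, Peli1, a ubiquitin ligase of innate immune signalling, at 0.26, the protocadherin Pcdhb7 at 0.30 and the zinc finger genes Zfp27 and Zfp40 at 0.23 and 0.26. With library 2 they were at 0.20, 0.16, 0.22, 0.18 and 0.18 in the same order. With library 1 also left out, Foxp2 was at 0.12 and Zfp40 at 0.14. On the lower side Pdgfb, the ligand that endothelium makes for Pdgfrb, was at 17.6, 19, 19.2 and 18.8 CPM, below every control at 20.4, 23.1 and 26.8 (-0.33, SE 0.0788; -0.25 with library 2). Crybb1, a crystallin expressed by microglia in brain, was at 2.17, 2.76, 2.93 and 3.21 CPM against 3.4, 4.33 and 6.43 (-0.67), and Sipa1, a GTPase-activating protein of Rap, at 11.9, 14.5, 13.5 and 14 against 15, 17.5 and 18.2 (-0.35). For both genes these 4 libraries lay below every control, while library 2 lay above every control, at 7.59 CPM of Crybb1 and 19.7 of Sipa1, and with it the values were -0.24 and -0.22. Galnt14, which starts O-linked sugar chains, was at -0.27 and the carbonic anhydrase Car4, found on brain capillaries, at -0.51. Library 2 was above every control for both, at 31.5 and 12.8 CPM, and with it they were at -0.15 and -0.16. None of these genes passed, with adjusted p from 0.78 to 0.835 by edgeR.

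Scores of ventricle-lining and newborn neuron genes lay above the controls in most C/N-TAF libraries. The 11 ependymal genes had a median of 0.30 (0.27 without library 2), 2 higher at an unadjusted p under 0.05 (1 without library 2), where 5.08% and 2.8% of all genes were higher, and library scores of 0.299, 0.142, -0.158, 0.553 and 0.371 against -0.227 to 0.146 in controls. Libraries 1, 4 and 5 exceeded every control. Ccdc153, a gene of ciliated ependyma, was at 8.78, 24.2, 7.91, 16.7 and 13 CPM against 7.72 to 10.9 (0.67, SE 0.237; 0.40 without library 2). The 16 newborn neuron genes had a median of 0.20 (0.29 without library 2), 3 higher at an unadjusted p under 0.05 (1 without library 2), beside the same shares, and scores of 0.159, 0.164, -0.089, 0.315 and 0.383 against -0.162 to 0.138. Dlx1, a homeobox factor of forebrain interneuron and neuroblast lineages, was at 21.8, 26, 18.1, 29.7 and 31.4 CPM against 17.6 to 26.5 (0.30, SE 0.139; 0.29 without library 2). For both lists library 3 was the lowest and libraries 4 and 5 the highest. Beside library 2, leaving out library 4 brought the ependymal median to 0.17 and leaving out library 5 brought the newborn neuron median to 0.19. The N-TAF group, set beside the same controls, had list medians of 0.36 for ependymal and 0.24 for newborn neuron genes, so the rise was not particular to C/N-TAF.

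Markers of neighbouring tissue also differed between libraries. Ttr, the main transcript of choroid plexus, was at 207, 404, 80.1, 390 and 437 CPM and from 4.23 to 910 in controls, and library 3 was the lowest of the C/N-TAF group here too. The choroid plexus list median was 0.00 and 0.12 without library 2. Slc17a7 was at 18.5, 164, 26.7, 35.1 and 49.1 CPM against 19.7 to 136, and the cortical and hippocampal list median was -0.10, and -0.52 without library 2. Ambn, an enamel gene that marks tissue or reads carried along, was at 2.50, 3.64, 0, 2.84 and 2.22 CPM and from 0 to 5.16 in controls. The part of these tissues in the ependymal, newborn neuron and vessel values was not tested.

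The difference between the miRNA groups was tested in the same fits. The controls cancel from the difference itself but enter the estimate of the spread. With all libraries 0 of 19413 genes passed for C/N-TAF against N-TAF (0%), with 2294 at an unadjusted p under 0.05 (11.8%). Without C/N-TAF library 2, 70 of 19653 passed in edgeR's quasi-likelihood fit (0.356%), 51 higher in C/N-TAF (0.26%) and 19 lower (0.0967%). Of the genes named above, Htr1b was higher in C/N-TAF by 0.51 on the log2 scale (adjusted p = 0.000655 by edgeR), Unc79 by 0.29 (adjusted p = 0.0119), and Sfrp4 lower at -0.94 (adjusted p = 0.0353). Against the shared controls Htr1b stood at 0.32 in C/N-TAF and -0.19 in N-TAF, Unc79 at 0.20 and -0.09, and Sfrp4 at -0.91 and 0.03. The call for Htr1b was kept with each C/N-TAF or N-TAF library left out in turn (adjusted p 0.000174 to 0.0121), and lost with library 2 in the fit (adjusted p = 0.127) and when only libraries with at least 0.5 CPM of Ambn were used (0.46, adjusted p = 0.118). Unc79 and Sfrp4 too were lost with library 2 in the fit (adjusted p = 0.713 and 0.106), when those with Ambn alone were used (0.290 and 0.537) and in C/N-TAF and N-TAF libraries only (0.106 and 0.133). Sfrp4 was also lost with the Ambn class as covariate (0.112), in libraries without Xist (0.0850) and without the low-count filter (0.0725), all by edgeR. Unc79 was no longer called without C/N-TAF library 1 or 4 (adjusted p = 0.0691 and 0.0647), and Sfrp4 without any of C/N-TAF libraries 1, 3, 4 and 5 (adjusted p 0.0547 to 0.111) or without any of N-TAF libraries 3, 4 and 5 (0.0589 to 0.0635). The number of calls was 4, 179, 6 and 20 with C/N-TAF library 1, 3, 4 or 5 also left out. It was 336, 154, 35 and 40 without N-TAF library 1, 2, 3 or 5, and 48 to 83 without any other N-TAF library. With the control libraries left out of the fit, 1 gene was called, so most of the 70 calls depend on the controls.

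Among the other lists, single members passed between the miRNA groups in the fit without library 2, where 0.356% of all genes were called. With library 2, or when those with Ambn alone were used, 0 genes were called. The 3 given here were named after their values were seen. Gli1, the transcriptional effector of hedgehog signalling, was lower in C/N-TAF by -1.54 (adjusted p = 0.00401 by edgeR), with -0.53 in C/N-TAF and 1.01 in N-TAF against the controls. Slc25a18, a mitochondrial glutamate carrier of astrocytes, was at -0.77 (adjusted p = 0.0404), with 0.06 and 0.83. Kcna4, a rapidly inactivating potassium channel, was higher in C/N-TAF by 0.31 (adjusted p = 0.0223), with 0.05 and -0.26. With library 2 the differences were -1.36, -0.57 and 0.24 (adjusted p = 0.0632, 0.198 and 0.185 by edgeR). For each of these 3, without library 2, the larger departure from the controls was in the N-TAF group.

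In rats given the same labelled miRNAs, 0 of 16005 genes passed for C/N-TAF against control in a separate edgeR fit (0%), with 1442 at an unadjusted p under 0.05 (9.01%). The rat identifiers carry no symbols in the sources used here, so the genes named in mouse were not looked up there.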

How the data were processed

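Striatal RNA of 5 C/N-TAF, 8 control and 8 N-TAF mice was analysed from raw read counts per gene that the authors deposited, 1 column per animal. The submitters' processing notes list STAR for mouse, HISAT2 for rat, featureCounts and edgeR, without versions. They also list GRCh38 beside the mouse libraries, although the rows carry mouse identifiers, so the build is unsettled. No source used here gives the annotation release or the strand setting, so overlapping and antisense genes could not be told apart. Of 54532 rows, 54409 matched a symbol.

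The 3 groups were fitted together by edgeR's quasi-likelihood method (R 4.3.3, edgeR 4.0.16, limma 3.58.1) with TMM scaling, robust dispersion and filterByExpr, refitted without C/N-TAF library 2. DESeq2 (1.42.0) and limma-voom were alternatives. Adjustment was by Benjamini-Hochberg over all genes tested, with calls under 0.05. List scores used log2 CPM with a prior count of 2. Named genes are Taf1, the 10 of smallest p on either side in each fit with a usual symbol and at least 1 CPM, and up to 4 of smallest p per list. The comparison and the 39 lists were chosen with earlier results of these data known. Lists were described by counts and medians and not tested. Library totals ran from 24.9 to 35.6 M (mega) counts in the compared groups. Counting error takes a larger part of the spread for low transcripts such as Sfrp4, with a control mean of 1.24 CPM, and was not separated from the spread between animals. The closest pair of libraries within a group differed by 5.91 times sampling noise, so none was counted as a duplicate. The fits were tested on simulated counts.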

Additional observations from a re-analysis of the deposited data

Results flagged for a closer look

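In 78 groups of per-library values, 10 had a sample far from the others, where chance gives about 1 in 20 groups, and 9 of the 10 were C/N-TAF library 2. Its distance to the controls was 0.755. It was the highest of 5 for Car4 at 12.8 CPM, Crybb1 at 7.59, Eif3e at 106, Ly6e at 85.4, Pdgfb at 23.95 and Ttc1 at 55.0, and the lowest for Taf1 at 50.6 CPM and Unc79 at 59.4. The tenth was control library 6, 1 of the 2 controls with Xist, which had the fewest genes at 1 CPM or more (15263).

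Effects of the miRNA groups against their shared controls differed by edgeR's test of C/N-TAF against N-TAF for 3 of the named genes without C/N-TAF library 2. The differences were 0.51 on the log2 scale for Htr1b, -0.94 for Sfrp4 and 0.29 for Unc79.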

How the results depend on the processing

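Calls for C/N-TAF against control numbered 0 in every setting run, with these exceptions. Leaving out C/N-TAF library 1 called Fn1 (-0.78, adjusted p = 0.0206 by edgeR), so leaving out single libraries gave 0 to 1 calls, and without library 2 a fit with controls numbered 26 to 28 alone called 1 gene, Tsc22d3, a glucocorticoid-induced gene (-0.66, adjusted p = 0.0392). The number at an unadjusted p under 0.05 was 1623, and 724 when only libraries with at least 0.5 CPM of Ambn were used, 966 in control and C/N-TAF libraries only, 786 with controls 26 to 28, 3124 without the low-count filter and 1146 to 3917 with single libraries left out, the highest without library 1. Without library 2 it was 1146, and 2556 without the filter and 971 to 1870 with single libraries left out; of these, leaving out library 3 gave the highest. Taf1 turned from -0.12 to 0.035 without library 2 and 0.030 without libraries 1 and 2, and ran from -0.177 to 0.035 with single libraries left out. The 70 calls for C/N-TAF against N-TAF became 0 with library 2 or among libraries with Ambn, 8 with the Ambn class as covariate, 1 in C/N-TAF and N-TAF libraries only, 32 in libraries without Xist, 108 with the length offset, 599 in DESeq2, and 4 to 336 with single libraries left out. These settings, the splits by Xist and Ambn level and the fit without libraries 1 and 2 were chosen after seeing the data. The causes were not tested.

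For named genes, 1005 of 1008 other values kept direction and side of the threshold. All but Taf1 were taken for their small p and none passed in the main fits, so this count is no separate support. For lists, 1799 of 1872 medians moved by less than 1 SD of the control scores. That SD was wide for some lists. With all libraries in the main fit, the interferon and MHC class I median ran from -0.139 to 0.410 over the settings. It still counted as unmoved beside an SD of 0.649. No paired analysis was possible because replicate numbers follow record order and the animal numbers in the labels are unique to 1 animal each. Control animals are numbered 2 to 7 and 26 to 28 and C/N-TAF animals 8 to 15. The controls with Xist are numbers 27 and 28, so the split of controls by number also differs in sex pattern.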

Other observations

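The mouse with no stated injection had 25.5 M (mega) counts. Its library held 104 CPM of Taf1, 0.707 of Xist, 71.4 of Ddx3y, 1.10 of Ambn and 571 of Ttr. Among genes named above it held 45.0 CPM of Fn1, 32.3 of Col4a1, 0.825 of Sfrp4, 69.3 of Htr1b and 45.3 of Cebpz.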
